A study of Mus musculus with 4 samples.

Results

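The 10 genes described here, Pdgfra, Pdgfrb, Ly6a, Cd34, Dpp4, Thy1, Cd24a, Dlk1, Icam1 and F3, encode cell surface proteins used to mark adipocyte progenitors and other stromal cells of fat. They were chosen by name, as markers of these cells, and all 10 were found among the 39179 genes of the deposited table. Polyadenylated RNA of epididymal white adipose tissue, from mice of a mixed genetic background, was sequenced in 2 libraries labelled Nck2 mutant (KO) and 2 labelled WT (wild type). Nck2 encodes an adaptor that links phosphorylated receptors to the actin cytoskeleton. Age, diet and the part of Nck2 that was altered are not given in the sources used here. Nothing in the labels ties the libraries to different animals. The p-values below therefore reflect only the spread among 4 samples, which may be technical. The design asks which transcripts of this fat pad differ between the Nck2 genotypes.

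Mature fat cells do not divide, and new ones arise from fibroblast-like progenitors that lie along vessels and in the connective tissue around the lobules. PDGFRα, the receptor for platelet-derived growth factor A, marks most of these progenitors. SCA-1 (encoded by Ly6a), CD34, THY1 and CD24 are used with it to sort them, and PDGFRβ is shared with pericytes, the contractile cells around capillaries. In mouse fat, DPP4 marks interstitial progenitors, ICAM1 marks cells committed to become adipocytes, tissue factor (CD142, encoded by F3) marks a stromal population reported to restrain differentiation, and DLK1 (also called Pref-1) is an inhibitor of adipocyte differentiation that is lost as cells mature. None of the 10 is specific to progenitors. CD34 and ICAM1 are also made by endothelium, THY1 by T cells and neurons, CD24 by many epithelia and B cells, and DPP4 by mesothelium and some epithelia. In bulk tissue, fewer cells of a type and less RNA per cell cannot be told apart.

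The libraries held between 31831904 and 37980391 reads assigned to genes. All 12 mature adipocyte markers, of which Cfd and Plin4 were the most abundant, were detected in every library. Their summed level was 1029020 and 1121298 normalized counts in the KO libraries against 453884 and 295597 in the WT libraries. The summed level of 12 male tract epithelium markers, led by Crisp1 and Spink8, was 150 and 136 in the KO libraries against 454330 and 419161 in the WT libraries, and Lcn5, Lcn8 and Lcn9 of that list (named after their values were seen) were at 0 in both KO libraries. In the WT libraries Lcn5 was at 1825 and 94.9, Lcn8 at 1.02 and 23.3, and Lcn9 at 0 and 22.3, and the last 2 were under the filter. The sum over 12 pericyte and smooth muscle markers, led by Myh11 and Acta2, was 57618 and 64654 in the KO libraries against 406684 and 523422 in the WT libraries. Schwann cell and neuron markers summed to 2431 and 2604 in KO against 3999 and 4197 in WT. The KO and WT libraries were thus far apart in these transcripts, and the fold change of each named gene and the counts over each list were also computed with each library left out in turn. Counts with a library left out are given below in the order KO replicate 1, KO replicate 2, WT replicate 1 and WT replicate 2. Levels, ratios, orders of libraries and nearest patterns use all 4 libraries. Nck2 itself was at 1076 and 947 normalized counts in the KO libraries against 1279 and 1667 in the WT libraries (limma adjusted p = 0.0509, 0.0495 with a pseudocount of 5, and 0.0184 with DESeq2), a total over its exons that does not check the genotype labels.

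All 10 markers passed the filter of a mean normalized count of 10 or more and were tested. F3, Ly6a and Pdgfrb were higher in KO, Cd24a and Dlk1 were lower, and the other 5 did not pass an adjusted p of 0.05 in limma. Over all 16710 genes tested, 22.4% were called higher and 24.4% lower, so 3 of 10 higher and 2 of 10 lower are near the shares of the whole table. The counts of calls with all libraries in every list below stand beside these same shares, and no list was tested as a set. The median log2 fold change was 0.22 over the 10 markers and -0.01 over all tested genes. Both KO libraries were above both WT libraries for 5 markers (38.9% of all tested genes) and below them for 2 (40.6% of all tested genes), and for Pdgfra, Dpp4 and Thy1 the groups overlapped. In the authors' deposited table the same 3 markers were higher and the same 2 lower at an adjusted p under 0.05, beside 18.8% and 21.7% of all genes with an adjusted p in that table. On recovered reads DESeq2 also called 3 higher and 2 lower (21.1% and 23.5% of all tested genes), and edgeR 2 higher and 2 lower (21% and 24.4%). The larger changes were the falls, at -2.42 for Cd24a and -4.59 for Dlk1 on the log2 scale, whereas the other 8 markers lay between -0.26 and 0.74.

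**Figure D1:**
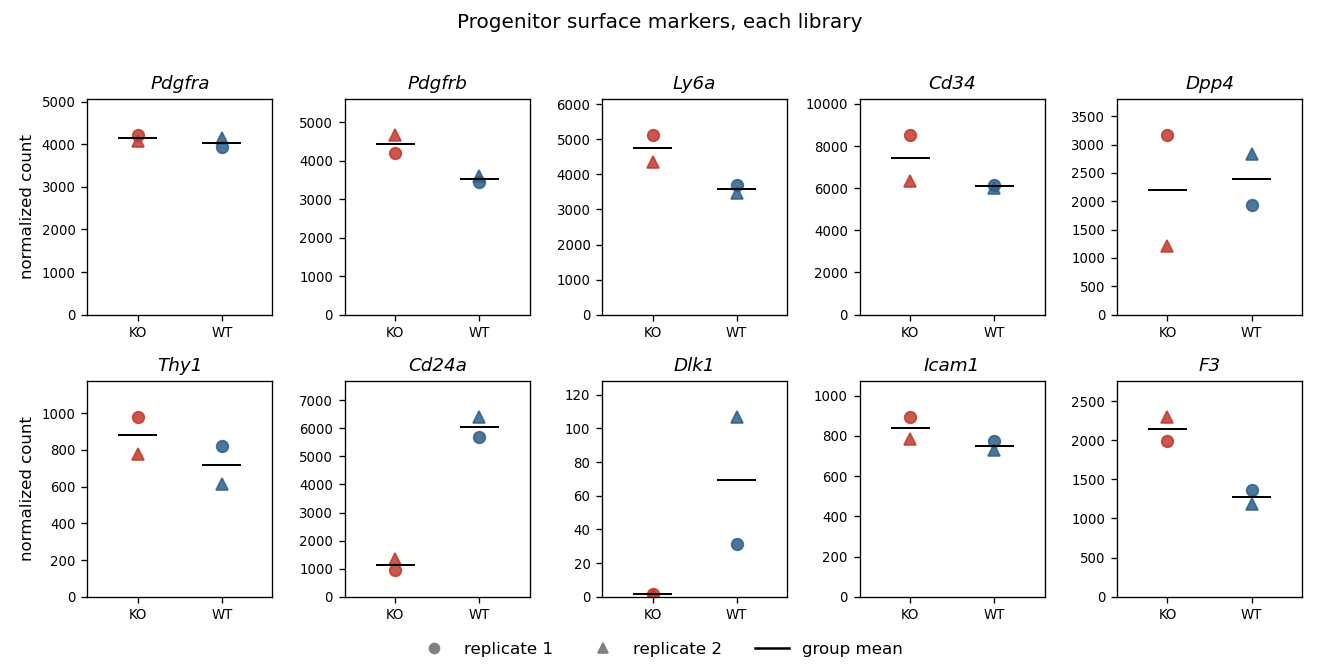
Normalized count (vertical axes, linear, from 0) of each of the 10 markers in the 2 KO and 2 WT libraries, with circles for replicate 1, triangles for replicate 2 and a bar for the group mean. Cd24a and Dlk1 were low in both KO libraries, F3, Ly6a and Pdgfrb were higher in both KO libraries, and the 2 KO libraries lay far apart for Dpp4 (3177 and 1214).

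F3 had the greatest rise among the markers and Dlk1 the greatest fall, and the 250 bases before the start of each gene are shown for these because they are the ends of the range. The sequences are from RefSeq (GRCm38.p6), 5′ to 3′ on the gene's own strand, which is the plus strand for both. Capitals mark matches on either strand (CCGCCC is the GC box on the minus strand) to 4 motifs, the TATA box (TATAAA), the CCAAT box (CCAAT), the GC box (GGGCGG) and the AP-1 motif (TGANTCA), none of which overlapped another in these windows.
F3 chr3:121723287-121723536: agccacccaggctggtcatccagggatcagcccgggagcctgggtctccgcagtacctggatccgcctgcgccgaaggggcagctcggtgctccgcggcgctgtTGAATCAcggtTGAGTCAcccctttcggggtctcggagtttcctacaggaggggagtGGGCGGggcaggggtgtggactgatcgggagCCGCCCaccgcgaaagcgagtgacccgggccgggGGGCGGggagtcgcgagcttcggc
Dlk1 chr12:109452573-109452822: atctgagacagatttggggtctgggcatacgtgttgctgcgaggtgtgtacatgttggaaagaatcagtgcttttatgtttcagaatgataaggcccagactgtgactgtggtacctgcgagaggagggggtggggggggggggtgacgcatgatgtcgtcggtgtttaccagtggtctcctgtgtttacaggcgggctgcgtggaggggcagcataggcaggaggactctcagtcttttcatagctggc
The F3 window held 2 AP-1 motifs, beginning 146 and 135 bases before the start, and 3 GC boxes. Among 32851 windows of the same length before gene starts, 6.75% held an AP-1 motif, 0.338% held 2 or more, 32.7% held a GC box, 33.8% a CCAAT box and 12.4% a TATA box. The Dlk1 window held none of the 4 motifs. The GC content was 70.0% in the F3 window and 54.8% in the Dlk1 window, beside a median of 52.4% over all windows. Windows were found for 6 of the 10 markers, and an AP-1 motif occurred in none of the other 4 (Pdgfra, Cd34, Dpp4 and Icam1). A match of letters is a description of the sequence and was not tested as a binding site.

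Among the receptors, Pdgfra (ENSMUSG00000029231, GRCm38 chromosome 5, 75152292 to 75198215), the receptor gene named above, was the steadiest of the markers. It was at 4226 and 4081 normalized counts in the KO libraries against 3944 and 4135 in the WT libraries. The 4 values lay close together and the groups overlapped. Its log2 fold change in limma was 0.04 (SE 0.064, adjusted p = 0.63), with a 95% interval on the fold of 0.912 to 1.16. It stayed between 0.01 and 0.07 with any library left out. For scale, the median over the mature adipocyte markers was 1.63 on the log2 scale, a size outside the Pdgfra interval in either direction.

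Pdgfrb (ENSMUSG00000024620, chromosome 18, 61045150 to 61085061), the receptor for platelet-derived growth factor B, was at 4193 and 4685 normalized counts in the KO libraries against 3453 and 3601 in the WT libraries. Neither WT library reached the lower KO value. This was a 1.26-fold rise (log2 fold change 0.33, SE 0.082, adjusted p = 0.032). The call was lost without KO replicate 2 (0.25, adjusted p = 0.11), without WT replicate 1 (0.30, adjusted p = 0.17) and without WT replicate 2 (0.36, adjusted p = 0.15). Pdgfrb is also a pericyte gene. Of 12 pericyte and smooth muscle markers, 7 fell (6, 7, 6 and 6 with each library left out) and 1 rose (2, 1, 2 and 0), the one being Mcam, an adhesion molecule of pericytes and endothelium (named after its values were seen, log2 fold change 1.15, adjusted p = 0.0036, or 0.0601 without WT replicate 2). Those that fell were mostly smooth muscle genes, among them Myh11 and Acta2. Of the pericyte genes in the list, Rgs5 (log2 fold change 0.52), Notch3 (0.35), Abcc9 (0.11) and Cspg4 (-0.23) did not pass. They were named after their values were seen, and another pericyte gene, among the 7 that fell, was called lower (-0.37, limma adjusted p = 0.024). The part of mural cells in the rise of Pdgfrb was not tested.

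Of the ligands of these receptors, 2 of 4 rose and the others did not pass. Pdgfb, the ligand that endothelium supplies to pericytes, was at 1674 and 2109 normalized counts in the KO libraries against 830 and 701 in the WT libraries, a log2 fold change of 1.30 (SE 0.15, adjusted p = 0.0047). Pdgfc was at 1309 and 1193 against 852 and 831 in WT (0.57, SE 0.080, adjusted p = 0.0073). Neither passed without WT replicate 1 (adjusted p of 0.0584 and 0.071) or without WT replicate 2 (0.0829 and 0.0889). Pdgfa, the ligand of PDGFRα, had a log2 fold change of 0.18 (adjusted p = 0.23). Pdgfd was at 1278 and 945 in KO against 1487 and 1632 in WT (-0.50, adjusted p = 0.068), and passed with DESeq2 on recovered reads (adjusted p = 0.0407) and without KO replicate 1 (-0.72, adjusted p = 0.0179). Endothelial markers were higher in the same libraries, with 9 of 12 called higher (10, 6, 5 and 1 with each library left out) and a summed level of 55481 and 64789 in KO against 37383 and 30655 in WT, and their part in the Pdgfb rise was not tested.

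Among the glycoproteins used for sorting, Ly6a (ENSMUSG00000075602, chromosome 15, 74994877 to 74998031) encodes SCA-1, a small protein held in the membrane by a lipid anchor. Its normalized counts were 5137 and 4356 in the KO libraries against 3696 and 3470 in the WT libraries. The groups did not overlap, and the rise was 1.32-fold (log2 fold change 0.40, SE 0.10, adjusted p = 0.036). With edgeR's quasi-likelihood test the adjusted p was 0.051. The call was also lost without KO replicate 1 (0.28, adjusted p = 0.091), without WT replicate 1 (0.45, adjusted p = 0.15) and without WT replicate 2 (0.36, adjusted p = 0.22).

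Ly6a belongs to a family of similar genes whose reads the counting may have split or dropped, so its level is uncertain to that degree. Of 10 other Ly6 family genes tested, 6 fell (6, 5, 4 and 3 with each library left out) and 2 rose (1, 1, 0 and 0). Ly6f, Ly6d and Ly6e were among those that fell. Ly6f was at 0.94 and 0 normalized counts in the KO libraries against 3944 and 3997 in the WT libraries (adjusted p = 0.00056), Ly6d at 17.8 and 11.2 against 575 and 577 in WT (adjusted p = 0.00093), and Lypd3 at 0 in both KO libraries against 79.5 and 102 in WT (adjusted p = 0.0012). Ly6e was at 14955 and 14087 in KO against 30321 and 32019 in WT (-1.10, adjusted p = 0.0024, or 0.0527 without WT replicate 2). The 2 that rose were Ly6c1, an endothelial and progenitor surface gene, and Ly6h, both named after their values were seen. Ly6c1 was at 3163 and 3922 in KO against 1999 and 1738 in WT (0.92, adjusted p = 0.0086), and neither Ly6c1 nor Ly6h passed without WT replicate 1 (adjusted p 0.0714 to 0.0752) or without WT replicate 2 (0.111 at most), nor Ly6h without either KO library (0.0582 and 0.0524). Ly6f, Ly6d and Lypd3 were low or at 0 where male tract epithelium markers were low too (both KO libraries), and the part of that tissue in these falls was not tested.

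Cd34 (ENSMUSG00000016494, chromosome 1, 194938819 to 194961279), which encodes a sialomucin of progenitors and endothelium, was at 8548 and 6328 normalized counts in the KO libraries against 6165 and 6024 in the WT libraries. KO replicate 1 was set apart from the other 3 libraries, which lay close together. The difference of 0.27 on the log2 scale (SE 0.16, adjusted p = 0.23) did not pass, with a 95% interval on the fold of 0.896 to 1.63. Without KO replicate 2 the log2 fold change was 0.49 and passed (adjusted p = 0.032), and without KO replicate 1 it was 0.05 (adjusted p = 0.66), so the value rests on KO replicate 1. An antisense gene, Gm16897, shares 148 exon bases with Cd34 and had at most 18.6 normalized counts in any library.

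Of 10 genes for relatives and binding partners of CD34, THY1 and CD24, 4 rose (3, 3, 0 and 0 with each library left out) and 2 fell (1, 0, 0 and 0). Beside these counts, 22.4% of all tested genes were called higher and 24.4% lower with all libraries. Podxl, a sialomucin of the CD34 family, was at 5359 and 6490 normalized counts in the KO libraries against 3571 and 3495 in the WT libraries (0.74, SE 0.11, adjusted p = 0.0086). Siglecg, a sialic acid receptor that binds CD24, rose by 1.41 (adjusted p = 0.010). Itgav, an integrin subunit that binds THY1 with its beta partner, fell by 0.35 on the log2 scale (adjusted p = 0.016). Itgam (higher) and Itgb3 (lower), named after their values were seen, also passed. Itgb3 missed the threshold with no filter (adjusted p = 0.0514), with upper-quartile scaling (0.0515) and with edgeR (0.0533). The calls of these 5 genes were lost without WT replicate 1 (adjusted p 0.0756 to 0.163) and without WT replicate 2 (0.0702 to 0.282). Itgav and Itgam were also lost without KO replicate 1 (0.0565 and 0.0694), and Itgav and Itgb3 without KO replicate 2 (0.0674 and 0.0935).

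Thy1 (ENSMUSG00000032011, chromosome 9, 44043384 to 44048579) encodes a lipid-anchored glycoprotein of fibroblasts, T cells and neurons. Its normalized counts were 981 and 779 in the KO libraries against 820 and 617 in the WT libraries. The groups overlapped, since KO replicate 2 lay below WT replicate 1. At a log2 fold change of 0.30 (SE 0.19, adjusted p = 0.26) it did not pass, with a 95% interval on the fold of 0.859 to 1.76. The 10 T and B lymphocyte markers summed to 787 and 766 in KO against 549 and 844 in WT, and 0 of the 10 passed in limma, edgeR or DESeq2 (1 had an unadjusted p under 0.05 in limma, 1 in edgeR and 0 in DESeq2).

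Cd24a (ENSMUSG00000047139, chromosome 10, 43578284 to 43584265), which encodes a short, heavily glycosylated protein of epithelia, B cells and a fraction of fat progenitors, fell the most of the markers in absolute counts. It was at 959 and 1331 normalized counts in the KO libraries against 5707 and 6416 in the WT libraries. The groups were far apart, with both KO values well below either WT value. On the log2 scale the change was -2.42 (SE 0.18, adjusted p = 0.0017), which makes the WT level 5.35 times the KO level. The call was lost without WT replicate 2, at -2.34 (adjusted p = 0.061), and held with each other library left out.

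The fall of Cd24a was measured beside that of epithelial transcripts. Epcam, the epithelial adhesion molecule (chosen for this comparison after its values were seen), was at 12.2 and 8.93 normalized counts in the KO libraries against 3450 and 3498 in the WT libraries. Of 9 male tract epithelium markers tested, 8 fell (8, 8, 7 and 7 with each library left out) and the other did not pass. Among the mesothelial markers, the simple-epithelial keratins Krt19 and Krt18 also fell (Krt19 at 2497 and 420 in KO against 8364 and 11854 in WT, adjusted p = 0.041, or 0.0653 with edgeR). Krt18, named after its values were seen, had an adjusted p of 0.015, and neither keratin passed without WT replicate 1 or without WT replicate 2 (adjusted p 0.143 to 0.267). The B cell genes Cd79a, Cd79b and Ms4a1, named after their values were seen, did not pass. Smooth muscle genes fell in both KO libraries too, and 7 of 12 pericyte and smooth muscle markers had their libraries in the order of Cd24a (WT replicate 2, WT replicate 1, KO replicate 2, KO replicate 1). That order was found in 1 of 9 male tract, 2 of 9 Schwann cell and neuron and 0 of the other 5 lists' markers, and in 12.5% of all tested genes. The part of male tract epithelium and of smooth muscle in the Cd24a difference was not tested, and neither can be told apart from genotype in these 4 libraries.

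Dlk1 (ENSMUSG00000040856, chromosome 12, 109452823 to 109463336) was nearly undetected in the KO libraries. It had 2 and 1 reads in the KO libraries against 31 and 115 reads in the WT libraries, or 1.87 and 1.12 against 31.6 and 107 normalized counts. The groups did not overlap, and the 2 WT libraries differed 3.39-fold. Summed over libraries and scaled for size factors, the WT level was 46.5 times the KO level (exact 95% interval 15.6 to 228, for counting error alone). The fitted log2 fold change was -4.59 (SE 0.70, adjusted p = 0.0091), a value that depends on the pseudocount for a gene with so few reads. It passed with each library left out, between -5.45 and -3.72 (adjusted p up to 0.046). Dlk1 was under the alternative filter of a mean of 50 or more and was not tested there. The libraries with little Dlk1 were those with little male tract RNA. Within WT, the summed male tract markers were at 454330 in replicate 1 and 419161 in replicate 2, whereas Dlk1 was higher in replicate 2. The order of the KO libraries for Dlk1 rests on 2 reads against 1, so shared orders are a description only. Of 9 male tract markers, 3 had their libraries in the same order as Dlk1. So did 2 of 10 mesothelial, 1 of 9 Schwann cell and neuron, 0 of the other 5 lists' markers and 13.8% of all tested genes. The part of that tissue in the Dlk1 difference was not tested.

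Of 9 tested genes for DLK1 processing, Notch receptors and imprinted neighbours of Dlk1, 3 rose (4, 2, 1 and 0 with each library left out) and 1 fell (1, 1, 0 and 0). Among all tested genes 22.4% were called higher and 24.4% lower with all libraries. Of the imprinted neighbours, Meg3, Rian and Mirg, named after their values were seen, did not pass, and their groups overlapped. Their log2 fold changes were 0.06, 0.25 and 0.85 (limma adjusted p = 0.89, 0.53 and 0.23). Rtl1, another neighbour, was under the filter. Dio3, a thyroid hormone deiodinase gene of the same imprinted domain, was at 5.62 and 8.93 normalized counts in the KO libraries against 96.8 and 75.4 in the WT libraries (-3.41, SE 0.36, adjusted p = 0.0035). Notch4, an endothelial Notch receptor, rose by 1.16 (adjusted p = 0.0095), Adam17, the protease that releases the DLK1 ectodomain, by 0.42 (adjusted p = 0.014), and Notch1 by 0.34 (adjusted p = 0.022). Dio3, Adam17 and Notch1 lost their calls without WT replicate 1 (adjusted p 0.0502 to 0.126), all 4 without WT replicate 2 (0.0573 to 0.128), and Adam17 and Notch1 without KO replicate 2 (0.0629 and 0.0832).

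**Figure D2:**
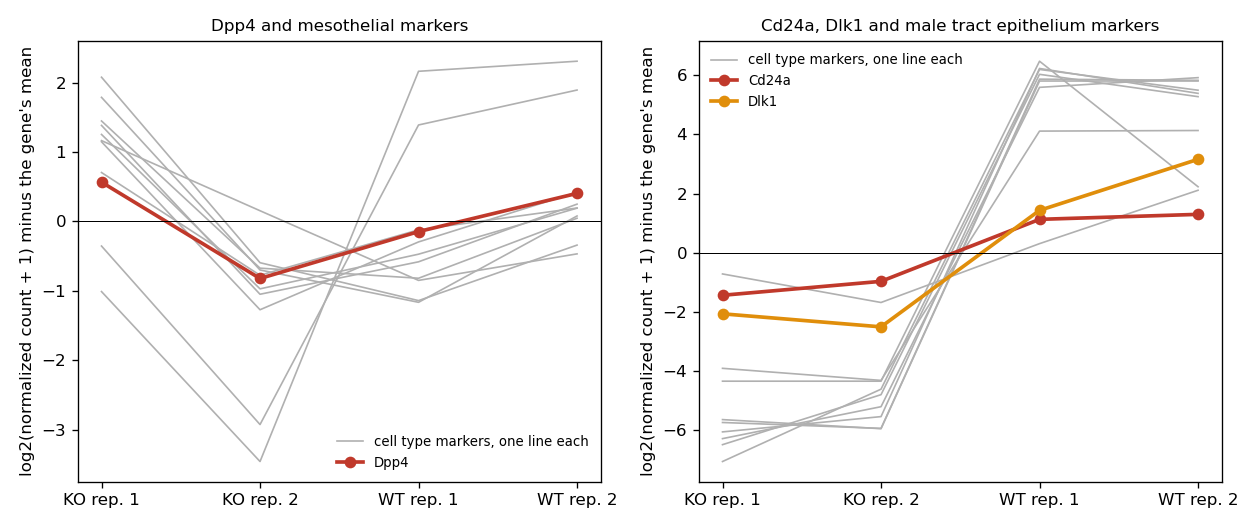
Log2(normalized count + 1) minus each gene's own mean over the 4 libraries, for Dpp4 with 10 mesothelial markers (left) and for Cd24a and Dlk1 with 9 tested male tract epithelium markers (right), with cell type markers in grey. Dpp4 was highest in KO replicate 1 and lowest in KO replicate 2, and all 10 mesothelial markers were likewise higher in KO replicate 1 than in KO replicate 2. Cd24a and Dlk1 were low in both KO libraries, as were the male tract genes. Smooth muscle genes, which are not drawn, were low there too.

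Dpp4 (ENSMUSG00000035000, chromosome 2, 62330073 to 62412231) differed more between libraries of 1 genotype than between genotypes. It encodes a dipeptidyl peptidase that trims chemokines and gut hormones. It was at 3177 and 1214 normalized counts in the KO libraries against 1939 and 2840 in the WT libraries, so the KO libraries spanned both WT values. KO replicate 1 was 2.62-fold above KO replicate 2, and 97.5% of the 14031 genes with a mean of 50 or more had a smaller gap between the KO libraries. Its log2 fold change of -0.26 (SE 0.51, adjusted p = 0.70) did not pass, and the 95% interval on the fold, 0.324 to 2.16, is wide in either direction. Without KO replicate 1 the log2 fold change was -0.95 (adjusted p = 0.068). It turned to 0.44 without KO replicate 2 (adjusted p = 0.28) and to 0.02 without WT replicate 2 (adjusted p = 0.99), so its sign is not settled.

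Mesothelial transcripts, from the cell layer that covers the fat pad, moved between the same libraries. Their summed level was 29447 and 6599 normalized counts in the KO libraries against 18574 and 26739 in the WT libraries. Of this, Krt19 gave 2497 and 420 in KO against 8364 and 11854 in WT. Krt18 gave 388 and 70.3 in KO against 3505 and 3876 in WT. Much of the WT sums thus came from these keratins, and the sums do not give the level of the other markers. Each of the 10 mesothelial markers was higher in KO replicate 1 than in KO replicate 2, with a median ratio of 5.38, and each was higher in WT replicate 2 than in WT replicate 1. Upk3b, Upk1b, Wt1 and Gpm6a had their 4 libraries in the same order as Dpp4 (KO replicate 1, WT replicate 2, WT replicate 1, KO replicate 2). That order was shared by 1.59% of all tested genes and by 0 genes of the other 7 cell type lists. Upk3b, a uroplakin of mesothelium, was at 8866 and 1643 in KO against 2271 and 4040 in WT. Of the 10, Krt19 and Krt18 passed as lower (3, 2, 0 and 0 genes did with each library left out) and Cldn15 as higher (0, 4, 0 and 0 genes). The adjusted p of Cldn15 was 0.045, or 0.0509 with no filter, 0.0501 with TMM scaling, 0.051 without KO replicate 1, 0.27 without WT replicate 1 and 0.20 without WT replicate 2. Cldn15, Upk1b, Wt1 and Gpm6a were named after their values were seen, and the part of mesothelium in the Dpp4 values was not tested.

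Of 9 tested genes for partners, relatives and substrates of DPP4, 4 rose (3, 2, 2 and 2 with each library left out) and 1 fell (1 in each). With all libraries, 22.4% of all tested genes were called higher and 24.4% lower. Fap, the closest relative of Dpp4 and an enzyme of activated fibroblasts, was at 451 and 454 normalized counts in the KO libraries against 146 and 105 in the WT libraries (1.86, SE 0.20, adjusted p = 0.0036). The chemokine gene Ccl11, whose product DPP4 cleaves, rose by 2.45 (SE 0.15, adjusted p = 0.0012), and Cxcl12, another substrate, by 0.45 (adjusted p = 0.018). Cav1, named after its values were seen, also rose. Npy, which encodes a neuropeptide cut by DPP4, was at 0.94 and 3.35 in KO against 1036 and 1356 in WT (adjusted p = 0.00096). Male tract epithelium markers were low in both KO libraries too, and the part of that tissue in the fall of Npy was not tested. Cxcl12 and Cav1 lost their calls without KO replicate 2 (adjusted p 0.0726 and 0.081), without WT replicate 1 (0.123 and 0.118) and without WT replicate 2 (0.107 and 0.191), and Cav1 also without KO replicate 1 (0.0593).

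Icam1 (ENSMUSG00000037405, chromosome 9, 21015985 to 21028817), which encodes the adhesion molecule bound by leukocyte integrins, was at 896 and 787 normalized counts in the KO libraries against 774 and 729 in the WT libraries. KO replicate 2 was only slightly above WT replicate 1. It did not pass (log2 fold change 0.16, SE 0.099, adjusted p = 0.25), with a 95% interval on the fold of 0.929 to 1.34.

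F3 (ENSMUSG00000028128, chromosome 3, 121723537 to 121735048), which encodes tissue factor, the membrane protein that starts blood coagulation, was at 1984 and 2300 normalized counts in the KO libraries against 1369 and 1190 in the WT libraries. Both KO values lay well above the WT values. This was a 1.67-fold rise, with a 95% interval of 1.35 to 2.08 (log2 fold change 0.74, SE 0.12, adjusted p = 0.0095). Leaving out WT replicate 1 gave 0.84 and leaving out WT replicate 2 gave 0.64, and neither passed (adjusted p = 0.066 and 0.10). It passed without KO replicate 1 and without KO replicate 2, at 0.85 and 0.64.

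Partners of tissue factor and of ICAM1 moved in both directions, with 5 of 11 tested genes higher (4, 4, 1 and 1 with each library left out) and 4 lower (3, 3, 2 and 2). Itgb2, the beta subunit of the leukocyte integrins that bind ICAM1, was at 2163 and 2081 normalized counts in the KO libraries against 887 and 1048 in the WT libraries (1.14, SE 0.10, adjusted p = 0.0026). F2rl1 and F2r, receptors cleaved by coagulation proteases, fell by 3.33 (SE 0.16, adjusted p = 0.00079) and by 1.03 (SE 0.12, adjusted p = 0.0048) on the log2 scale. Fga, a fibrinogen chain, was at 0 in both KO libraries against 211 and 188 in the WT libraries (adjusted p = 0.00073). Both KO libraries also had low male tract epithelium markers, and the part of that tissue in the falls of Fga and F2rl1 was not tested. The other called genes, named after their values were seen, were F7 (which binds tissue factor), Tfpi2, Itgam and Itgax, all higher, and Tfpi, the inhibitor of the tissue factor pathway, which was lower. F2r, F7, Tfpi2, Itgax, Itgam and Tfpi lost their calls without WT replicate 1 (adjusted p 0.0673 to 0.147) and without WT replicate 2 (0.0699 to 0.259), Itgam and Tfpi without KO replicate 1 (0.0694 and 0.127), and Itgax and Tfpi without KO replicate 2 (0.0952 and 0.127). Tfpi also missed with DESeq2 (0.0942), with no filter (0.0624) and with upper-quartile scaling (0.0528). Macrophage markers, which share the leukocyte integrins, were higher in 9 of 10 (9, 9, 7 and 5 with each library left out), with a summed level of 59144 and 54640 in KO against 27890 and 26892 in WT, and their part in the integrin values was not tested.

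**Figure D3:**
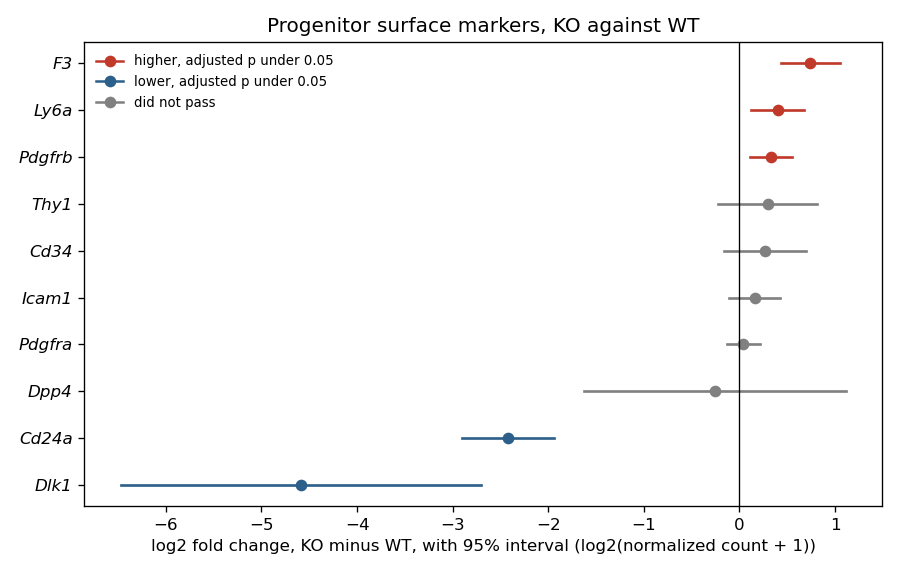
The horizontal axis is the log2 fold change (KO minus WT) of each marker, from log2(normalized count + 1), and lines are 95% intervals from limma. F3, Ly6a and Pdgfrb are higher, Cd24a and Dlk1 lower, and the widest interval among the markers that did not pass is that of Dpp4.

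Other genes of the populations that these markers define were set beside them. Of 12 interstitial progenitor genes, the population marked by DPP4, 7 rose (5, 5, 1 and 0 with each library left out) and 2 fell (2, 2, 0 and 0). The shares over all tested genes with all libraries were 22.4% higher and 24.4% lower. The median log2 fold change of these 12 genes was 0.44, and 0.37 to 0.57 with a library left out. Cd55, a complement regulator sorted with DPP4, was at 3737 and 2717 normalized counts in the KO libraries against 979 and 933 in the WT libraries (1.74, SE 0.17, adjusted p = 0.0030). Ackr3, a scavenging chemokine receptor, rose by 1.63 (adjusted p = 0.0019) and Creb5, a transcription factor gene, by 1.32 (adjusted p = 0.0046). Bmp7 fell by 2.17 on the log2 scale (adjusted p = 0.0089), and Wnt2 was the other gene that fell (named after its values were seen). Pi16, also named after its values were seen and a usual companion of DPP4, was at 2193 and 1727 in KO against 1943 and 1840 in WT (0.04, adjusted p = 0.82, and -0.13 without KO replicate 1). Without WT replicate 2 all 5 called genes named here missed the threshold (adjusted p 0.0617 to 0.208), and without WT replicate 1 Cd55, Creb5, Bmp7 and Wnt2 missed it (0.062 to 0.176).

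Of 12 committed preadipocyte genes, the population marked by ICAM1, 10 rose (7, 6, 2 and 2 with each library left out) and 2 fell (2, 2, 0 and 0). The median was 1.21, and 1.03 to 1.36 with a library left out. Pparg, the regulator of adipocyte differentiation, was at 10452 and 9896 normalized counts in the KO libraries against 4012 and 3418 in the WT libraries (1.46, SE 0.10, adjusted p = 0.0016). Col15a1, a basement membrane collagen gene, rose by 1.38 (adjusted p = 0.0033) and Cd36, a fatty acid receptor gene, by 1.91 (adjusted p = 0.0059). Cxcl14 fell by 3.36 on the log2 scale (adjusted p = 0.0026), and Sparcl1 was the other gene that fell (named after its values were seen). Mature adipocytes also express Pparg, Cd36, Fabp4 and Lpl of this list, and the mature adipocyte markers rose in 9 of 12 (8, 8, 3 and 0 with each library left out). Cxcl14, Cd36 and Sparcl1 missed the threshold without WT replicate 1 (adjusted p 0.0602 to 0.0984) and without WT replicate 2 (0.0655 to 0.126).

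Of 8 other genes of the CD142 regulatory stromal population, 5 fell (5, 4, 2 and 2 with each library left out) and 2 rose (2, 2, 2 and 1), whereas F3 itself rose. The median was -0.49, and -0.65 to -0.47 with a library left out. Mgp, a calcification inhibitor of the matrix, was at 1509 and 1581 normalized counts in the KO libraries against 9454 and 8778 in the WT libraries (-2.56, SE 0.071, adjusted p = 0.00055). Rspo3, a Wnt agonist gene, fell by 4.56 on the log2 scale (adjusted p = 0.00073), and Clec11a, Gdf10 and Bgn, named after their values were seen, were also lower. Meox2 rose by 1.59 (adjusted p = 0.0029) and Cygb by 0.57 (adjusted p = 0.0034). Clec11a, Gdf10 and Bgn missed the threshold without WT replicate 1 (adjusted p 0.122 to 0.241) and, with Cygb, without WT replicate 2 (0.0536 to 0.201), Gdf10 also without KO replicate 1 (0.094), and Bgn without KO replicate 2 (0.0975). Gdf10 missed it with no filter too (0.0544). Smooth muscle also makes Mgp and Bgn, and its part in these falls was not tested.

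Of 12 pan-fibroblast genes, 6 rose (5, 6, 1 and 1 with each library left out) and 0 fell. The median was 0.88, and 0.79 to 0.95 with a library left out. Postn, a matrix protein gene, was at 9597 and 11040 normalized counts in the KO libraries against 4777 and 4979 in the WT libraries (1.08, adjusted p = 0.0024), and Col6a1 (1.04, adjusted p = 0.0054), Dpt (1.23, adjusted p = 0.0075) and Fap (above) rose as well. Postn, Col6a1 and Dpt missed the threshold without WT replicate 1 (adjusted p 0.0533 to 0.0784) and without WT replicate 2 (0.0611 to 0.0926). Relative to the mean of this list within each library, 9 of the 10 surface markers were lower in both KO libraries than in both WT libraries, and F3 overlapped. That is not particular to the markers, since 78% of all tested genes were lower in that way. Relative to the mean of the mature adipocyte markers, all 10 markers were lower in both KO libraries, as were 92.5% of all tested genes.

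**Figure D4:**
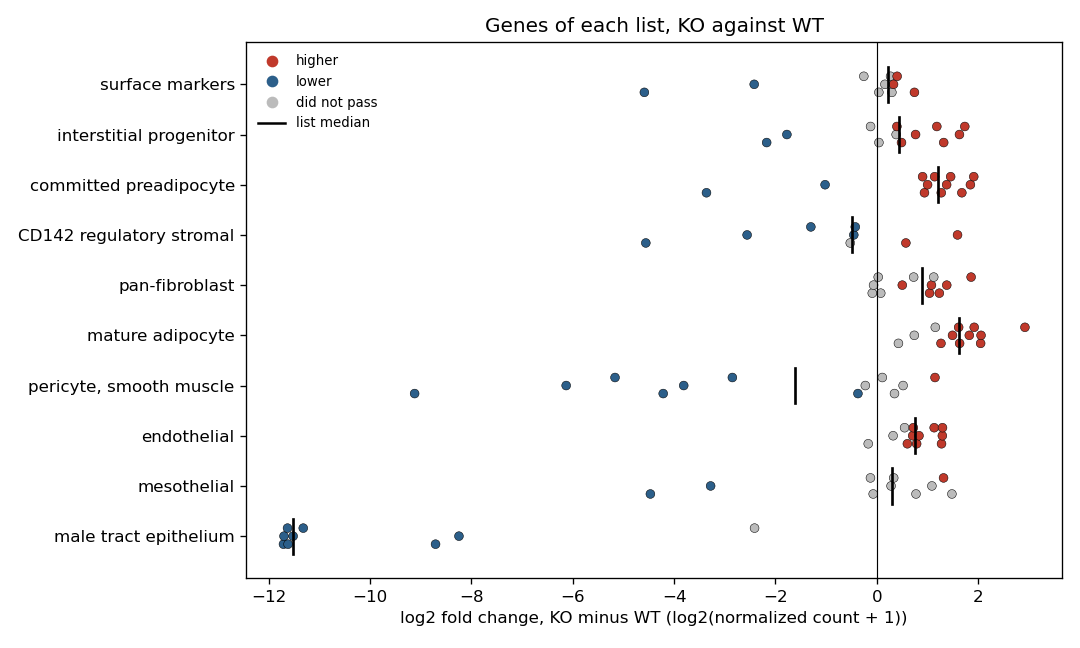
Log2 fold change, KO minus WT, of every tested gene of the surface markers, of 4 further stromal lists and of 5 cell type lists (1 point a gene, vertical bar at the list's median). The surface markers have a median of 0.22, the committed preadipocyte genes 1.21, the mature adipocyte markers 1.63 and the male tract epithelium markers -11.52.

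Ratios between markers within a library show how they moved against each other, with Pdgfra, the steadiest, as the denominator. Since Pdgfra was chosen for its steadiness in these same data, the ratios largely rescale the values above and are not separate evidence. The ratio of F3 to Pdgfra was 0.47 and 0.564 in the KO libraries against 0.347 and 0.288 in the WT libraries. For Ly6a it was 1.22 and 1.07 in KO against 0.937 and 0.839 in WT, and for Pdgfrb 0.992 and 1.15 in KO against 0.876 and 0.871 in WT. The ratios of these 3 were above in both KO libraries (34.7% of all tested genes were), and those of Cd24a and Dlk1 were below (42.8% of all tested genes were). The ratio of Cd24a to Pdgfra was 0.227 and 0.326 in KO against 1.45 and 1.55 in WT. The ratios of Cd34, Dpp4, Thy1 and Icam1 overlapped between the groups.

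Levels of the markers were compared with each other per kilobase of exon. Ly6a was the most abundant, at 4263 and 3615 normalized counts per kilobase in the KO libraries against 3068 and 2880 in the WT libraries. It was above the next marker in all 4 libraries. By the mean over the 4 libraries, Cd24a, Cd34, Pdgfrb, F3, Pdgfra, Dpp4, Thy1, Icam1 and Dlk1 followed, at 1397, 928, 727, 677, 409, 363, 267, 183 and 6.26 per kilobase. The place of Cd24a depended on the genotype, since it was at 372 and 516 per kilobase in the KO libraries against 2212 and 2487 in the WT libraries, below Cd34 in both KO libraries and above it in both WT libraries. The ranges over libraries overlapped for Cd34 and Pdgfrb, for Pdgfrb and F3, for Pdgfra and Dpp4, and for Dpp4 and Thy1, so the order within those pairs is not firm across libraries, although Cd34 was above Pdgfrb in each of the 4. Ly6a and Cd24a, F3 and Pdgfra, Thy1 and Icam1, and Icam1 and Dlk1 did not overlap. The lengths are unions over all annotated transcripts, from 1205 bases for Ly6a to 10024 for Pdgfra, so a gene whose long isoforms are little used is placed too low.

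**Figure D5:**
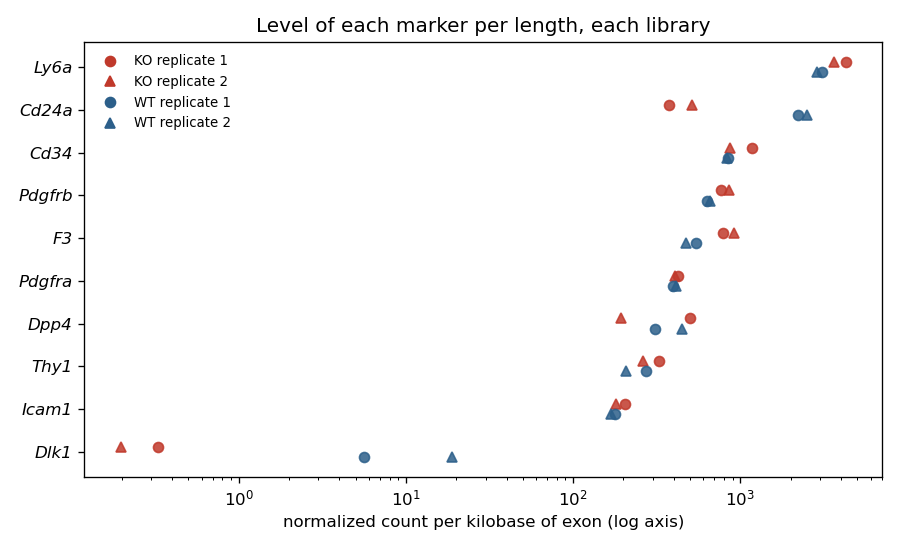
Normalized count per kilobase of exon (horizontal log axis) of each marker in the 4 libraries, sorted by the mean over libraries, with KO in red and WT in blue. Ly6a is highest, Dlk1 lowest, and the KO and WT points of Cd24a lie far apart.

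The spread between libraries of a genotype differed among the markers. The median gap between the 2 KO libraries over genes with a mean of 50 or more was 0.13 on the log2 scale, and it was 0.12 between the 2 WT libraries. Pdgfra had gaps of 0.05 between the KO and 0.07 between the WT libraries. Dlk1 had a gap of 1.73 between the WT libraries, larger than that of 99.3% of genes with a mean of 50 or more. The mean of Dlk1 itself was under 50, so it is ranked there against genes with more reads. Dpp4 had gaps of 1.39 between the KO and 0.55 between the WT libraries. Thy1 had gaps of 0.33 between the KO and 0.41 between the WT libraries, and Cd34 gaps of 0.43 between the KO and 0.03 between the WT libraries.

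For 9 of the markers the gene with the most similar pattern over the 4 libraries was found among 14031 genes, as the smallest Euclidean distance between centred log2 values. For Dlk1 it was Smcp, a gene of the sperm mitochondrial capsule (distance 0.61), at 5.62 and 7.81 normalized counts in the KO libraries against 104 and 327 in the WT libraries. For Cd24a it was Hif3a (0.14) and for Dpp4 the predicted gene Gm16241 (0.10). For 6 further markers it was Rps10 with Pdgfra, Adarb1 with Pdgfrb, Gsdmd with Ly6a, Agap1 with Cd34, the pseudogene Pcna-ps2 with Icam1 and Acad9 with F3, at distances of 0.0092 to 0.049. Between markers, the closest pairs were Pdgfra with Icam1 (0.19) and Ly6a with Cd34 (0.19), and 130 or more other genes lay closer to each of these markers than its partner did. With 4 libraries such likeness is a description only.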

How the data were processed

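The deposited values are normalized counts, a signal the authors obtained by dividing each gene's reads by a factor per library, and a table of the authors' comparison holding log2 fold changes, p-values with adjusted p-values, and a test score. CASAVA 1.8, TopHat2 2.0.10, HTSeq 0.5.3, DESeq2 1.4.5 and the build GRCm38 are named in the submitters' processing notes. The strand setting of the counting is not stated, so sense and antisense reads cannot be told apart. Dividing by the value of 1 read gave whole numbers for 100% of values (tolerance 0.01). limma 3.58.1 (R 4.3.3), with a trend over expression, was fitted to log2(normalized count + 1) for 16710 genes whose mean was at least 10, with Benjamini-Hochberg adjustment over all of them. The pseudocount understates changes of low genes. Replicates differed beyond sampling noise (chi-square per degree of freedom 34.8 for KO and 49.0 for WT). The steps were tested on simulated data. As alternatives, the pseudocount was set to 0.5 or 5, the filter was dropped or raised to 50, TMM or upper-quartile scaling was used, edgeR 4.0.16 or DESeq2 1.42.0 was run on recovered reads, the replicate number was a block, and each library was left out. A fit without a library has fewer degrees of freedom and assumes that the lone sample varies like the other group. Positions and exon lengths are from GENCODE M21. Named genes are the 10 markers, up to 4 of each further stromal or partner list by smallest p, the 2 most abundant of each cell type list, Nck2, and the gene of most similar pattern to each marker; others are said to be named after their values were seen. The markers and lists were chosen with earlier results of these data known. Adgre1 was matched as Emr1. Some genes that the rule selects are not reported here.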

Additional observations from a re-analysis of the deposited data

How the results depend on the processing

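Over 13 alternatives, Pdgfra, Pdgfrb, Ly6a, Cd34, Thy1, Icam1, F3 and Cd24a kept their direction, as did Dlk1 in the 12 that tested it. With no library left out, 2 or 3 markers were called higher and 1 or 2 lower; the count of 1 lower came with a mean of 50 or more, where Dlk1 was not tested. With a library left out, the counts ran from 0 to 3 higher and from 1 to 2 lower, and 0 were higher without WT replicate 1 or without WT replicate 2. Over all genes the same fits called 524 to 2846 higher and 1061 to 3434 lower, so the lost marker calls came with fewer calls overall. Same-numbered libraries did not deviate together (r = -0.009 over 16710 genes). With the replicate number as a block, 2737 genes were higher and 3339 lower, and Pdgfrb had an adjusted p of 0.054. Notch1, Krt19, Wnt2, Gdf10, Bgn, Itgax, Itgam, Tfpi, Cav1, Itgb3 and Cldn15 also lost their calls under the block (adjusted p 0.051 to 0.11). With a library left out, the log2 fold change of Dpp4 ran from -0.95 to 0.44. Other genes that did not pass with all libraries also changed sign in these fits. Their log2 fold changes ran from -0.88 to 1.55 for Upk3b, -0.83 to 1.39 for Upk1b and -0.13 to 0.21 for Pi16. The ranges were -0.24 to 0.20 for Lck, -0.38 to 0.036 for Cd4, -0.81 to 0.67 for Wt1 and -1.33 to 1.08 for Gpm6a. Wt1 was at -0.81 without KO replicate 1, and Upk1b at 1.39 without KO replicate 2. With all libraries, the log2 fold changes of Wt1 and Gpm6a also turned positive with edgeR (0.090 and 0.28) and DESeq2 (0.092 and 0.28). Neither gene passed there (adjusted p 0.90 and 0.80 with edgeR, 0.90 and 0.87 with DESeq2). The cause was not tested. Leaving out libraries was applied to the list counts after the data were seen. Of 67 list genes named and called, 46 lost the call without WT replicate 2. Depth limits Dlk1, with 3 reads in KO.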
